A study of Homo sapiens with 4 samples.

Results

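The comparison described here is that of irradiated with unirradiated NCI-H460 cells kept in DMSO, the solvent, without any drug. NCI-H460 is an established human large cell lung carcinoma line. The genes compared were the 8095 of 26364 gene symbols that reached 10 CPM (counts scaled to a common library of 1000000) in the higher of both libraries, and each is given as the log2 ratio of 4 Gy over 0 Gy. The series holds 4 libraries of messenger RNA, 1 for each combination of dose (0 Gy or 4 Gy) and treatment (DMSO or DZNep). Cells of the 4 Gy groups had received gamma radiation, cells of the 0 Gy groups none, and all then stayed for 48 h in DMSO or in 2 uM DZNep (3-deazaneplanocin A), an inhibitor of S-adenosylhomocysteine hydrolase. No label says whether the libraries came from separate cultures, and with 1 library per group no difference has a replicate check. Every value below is therefore a level or a ratio with no test and no p-value.

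Ionizing radiation breaks both strands of DNA, and the kinases ATM and ATR answer by stabilizing the transcription factor p53. p53 then raises the transcription of genes of cell cycle arrest, death, repair and its own feedback, among them CDKN1A, whose product p21 inhibits cyclin-dependent kinases. When these kinases are held back, the RB-family proteins keep E2F factors and the DREAM complex in a repressive state at the promoters of replication and mitosis genes. Those promoters carry short elements through which E2F factors, the DREAM complex and the CCAAT-binding factor NF-Y act, and the promoters of some p53 targets carry the p53 consensus.

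Promoter windows from 250 bases before to 50 after the annotated start were taken from RefSeq (GRCh38.p14), and 6683 of the 8095 genes had one. The promoters of KIF11 (chr10:92592880-92593179, plus strand) and HJURP (chr2:233854486-233854785, minus strand) are shown because these mitosis genes were among the 20 lowest ratios and carry the elements of that group. Capitals mark the cell cycle genes homology region (CHR), searched as TTTGAA or TTCGAA on both strands, and the CCAAT box, searched as CCAAT on both strands.
KIF11: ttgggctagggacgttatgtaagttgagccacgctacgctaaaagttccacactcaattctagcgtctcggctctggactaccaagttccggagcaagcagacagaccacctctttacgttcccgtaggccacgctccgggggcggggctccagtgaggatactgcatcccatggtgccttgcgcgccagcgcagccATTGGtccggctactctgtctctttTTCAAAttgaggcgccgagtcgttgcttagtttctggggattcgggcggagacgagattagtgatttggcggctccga
HJURP: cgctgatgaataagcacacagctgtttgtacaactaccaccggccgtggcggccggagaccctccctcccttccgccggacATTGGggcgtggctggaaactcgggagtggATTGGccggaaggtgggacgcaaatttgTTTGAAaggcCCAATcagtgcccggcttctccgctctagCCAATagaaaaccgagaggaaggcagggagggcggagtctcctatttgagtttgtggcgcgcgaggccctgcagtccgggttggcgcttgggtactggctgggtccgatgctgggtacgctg
In KIF11 the CHR lies at positions -28 to -23 and a CCAAT box at -53 to -49, both on the strand opposite to the gene, counted with +1 at the start. HJURP has a CHR at -111 to -106 and 4 CCAAT boxes. Of the 60 mitosis genes with a promoter window, 43 (71.7%) held a CHR, against 10.6% of all genes compared and 16.6% of the 27305 promoters in the table. A CCAAT box was present in 73.3% of the mitosis windows, 36.8% of all genes compared and 35.7% of the table.

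The promoters of CLSPN (chr1:35769929-35770228, minus strand) and POLE2 (chr14:49688165-49688464, minus strand) are shown for the replication genes. Capitals mark the E2F element alone, searched on both strands as TTTCCCGC, TTTGGCGC, TTTCGCGC or TTTGCCGC.
CLSPN: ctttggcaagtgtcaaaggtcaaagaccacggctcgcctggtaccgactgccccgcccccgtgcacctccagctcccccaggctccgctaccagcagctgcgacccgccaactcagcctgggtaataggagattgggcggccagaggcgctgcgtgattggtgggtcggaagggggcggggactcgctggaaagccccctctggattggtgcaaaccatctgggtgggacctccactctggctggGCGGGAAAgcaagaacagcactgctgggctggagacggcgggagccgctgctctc
POLE2: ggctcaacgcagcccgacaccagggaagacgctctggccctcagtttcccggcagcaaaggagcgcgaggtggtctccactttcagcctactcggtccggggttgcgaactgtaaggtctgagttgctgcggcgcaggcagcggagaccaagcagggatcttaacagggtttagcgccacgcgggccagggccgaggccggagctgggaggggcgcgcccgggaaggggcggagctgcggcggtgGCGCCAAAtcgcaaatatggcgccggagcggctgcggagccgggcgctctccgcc
Both have the element at positions -5 to +3, across the annotated start. It was found in 19 of 40 replication windows (47.5%), in 5.75% of all genes compared and in 3.33% of the table, while the CHR was found in 1 replication window (2.5%). The mitosis windows held the E2F element in 6.67% of cases. ACTA2 (chr10:88991288-88991587, minus strand) is shown because its ratio was among the 20 highest and its window holds the p53 consensus, marked in capitals at +10 to +29.
ACTA2: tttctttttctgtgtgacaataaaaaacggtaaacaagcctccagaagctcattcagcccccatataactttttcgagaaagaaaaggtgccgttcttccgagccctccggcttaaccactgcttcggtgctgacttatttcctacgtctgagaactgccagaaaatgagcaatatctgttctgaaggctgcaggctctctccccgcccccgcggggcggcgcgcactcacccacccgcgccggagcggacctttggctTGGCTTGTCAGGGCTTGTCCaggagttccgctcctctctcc
The p53 consensus was searched as a pair of adjoining decamers without spacer, with at most 2 mismatches and an intact core C and G in each decamer. It was found in 4 of 67 windows of p53 targets (5.97%), against 0.239% of all genes compared and 0.271% of the table. Many p53 elements lie in introns or farther upstream and are outside these windows. Matches are descriptions of letters, and binding was not measured in these cells.

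The libraries held 136594350 counts for DMSO 0 Gy and 112461380 for DMSO 4 Gy, and the share of the 100 leading genes ran from 33.38% to 33.97% over the 4 libraries. The epithelial keratin KRT8 stood at 709 CPM at 0 Gy and 862 CPM at 4 Gy, KRT18 at 633 and 654 CPM, and the mesenchymal filament gene VIM at 867 and 976 CPM. CDKN2A, a cell cycle inhibitor that this line is known to lack, had 10 counts at 0 Gy and 0 counts at 4 Gy, where 3 counts would be 0.0267 CPM. EPCAM, an epithelial surface marker, was at 0.491 and 0.445 CPM, so this marker was close to absent. None of 15 markers of lung lineages reached 10 CPM. Of 18 markers of fibroblasts, endothelium and blood, 16 stayed below 10 CPM, and 4 had no count in either DMSO library. The 2 others were PDGFRB, a growth factor receptor, at 4.10 and 10.5 CPM, and CD68, a lysosomal protein, at 65.7 and 88.2 CPM. The summed level of this list was 97.2 CPM at 0 Gy and 121 CPM at 4 Gy, and its part in the results was not tested. In RNA from whole cultures, fewer cells in a state and less RNA per cell cannot be told apart.

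At 4 Gy, 167 genes stood at least 2-fold higher (2.06% of the genes compared) and 80 at least 2-fold lower (0.988%). At a 1.5-fold limit the counts were 702 higher (8.67%) and 596 lower (7.36%). The median log2 ratio over all genes was -0.03, the range between the quartiles ran from -0.27 to 0.25, and the middle 95% ran from -0.82 to 0.94. At least 4-fold higher were 14 genes, of which 11 reached 10 CPM only in the 4 Gy library where they were high, and 3 (ACTA2, CDKN1A and GDF15) in both. At least 4-fold lower was 1 gene, MYO1G, which reached 10 CPM only in the 0 Gy library. Members of the p53 target lists, 84 of the 8095 genes compared, made up 32 of the 167 higher genes. Genes of the replication (46) and nucleotide (28) lists made up 16 of the 80 lower genes. Mitosis genes (72) made up a further 10. Over the 7344 genes at 10 CPM in both libraries, 80 were at least 2-fold higher and 53 at least 2-fold lower. At the 10 CPM limit itself, NLRP1 (10.005 CPM at 4 Gy), TAB1 and XYLT2 (10.005 CPM each at 0 Gy) were just inside, and SUZ12 and TYRO3 (9.998 CPM each at 0 Gy) and ZCCHC6 (9.996 CPM at 4 Gy) just outside.

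**Figure D1:**
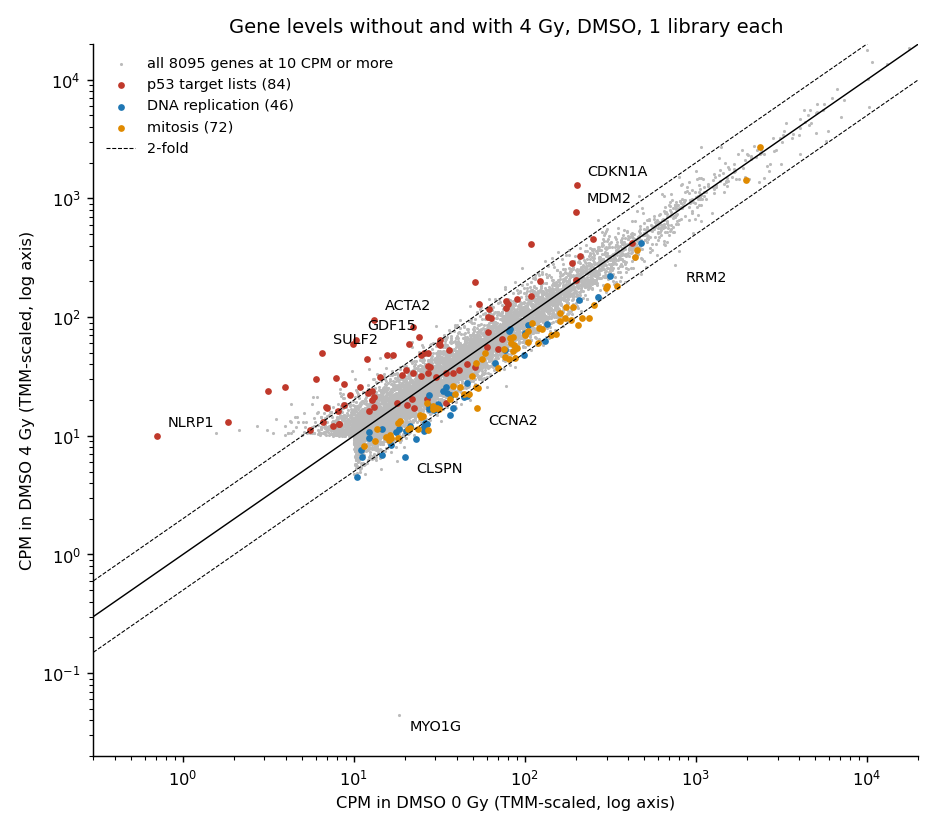
Levels of 8095 genes in DMSO 4 Gy (vertical axis, CPM, log scale) against DMSO 0 Gy (horizontal axis, CPM, log scale), 1 library each, with the diagonal and the 2-fold lines. Members of the p53 target lists (84, red) lie mostly above the diagonal, replication (46, blue) and mitosis genes (72, orange) mostly below it, and MYO1G lies alone at 0.0445 CPM.

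Of the 119 listed p53 targets, 84 reached 10 CPM. Among these 84, 32 were at least 2-fold higher and 0 at least 2-fold lower, and 58 were at least 1.5-fold higher and 1 at least 1.5-fold lower. Their median log2 ratio was 0.82, against -0.03 over all genes compared, and 70 of the 84 ratios were above 0 (47.5% of all genes compared). Some of the 84 passed the limit through a single library, and the 65 members at 10 CPM in both libraries had a median of 0.66. The counting intervals below are 95% exact conditional binomial intervals, which hold no variation between cultures. CPM are not corrected for gene length, so levels are compared between libraries and not between genes.

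Among p53 targets of cell cycle arrest, 9 of 16 members were at least 2-fold higher and the median was 1.201. Some of the 16 passed the limit through the 4 Gy library alone, and the 12 members at 10 CPM in both libraries had a median of 0.74. CDKN1A stood at 201 CPM at 0 Gy and 1296 CPM at 4 Gy, a log2 ratio of 2.69 (counting interval 2.67 to 2.71). MDM2, the ubiquitin ligase that degrades p53, stood at 199 and 771 CPM, a ratio of 1.96 (1.94 to 1.98). TP53INP1, a stress protein that acts with p53 in autophagy and death, stood at 3.95 and 25.5 CPM (2.69). The inhibitor of cyclin-dependent kinases and the main negative regulator of p53 were thus high together in the irradiated library. BTG2, an antiproliferative regulator of mRNA decay, stood at 9.92 and 59.7 CPM (2.59). PHLDA3, an inhibitor of AKT signalling, stood at 7.91 and 30.5 CPM (1.95). GADD45A, a stress sensor that binds cyclin-dependent kinase 1 and PCNA, stood at 11.999 and 44.3 CPM (1.88). These genes were at least 3.69-fold higher, while PLK3, a stress-linked kinase (6.93 and 17.2 CPM, 1.31), and ZMAT3, an RNA-binding protein (10.9 and 25.8 CPM, 1.24), were less far apart. The ratios of SFN (-0.20), E2F7 (-0.08), RFWD2 (-0.41) and RCHY1 (-0.44) were below 0, the last pair being ubiquitin ligases that act on p53. PPM1D, the phosphatase that dampens p53 signalling, stayed below the limit with 2.51 and 5.30 CPM.

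Among p53 targets of cell death, 3 of 16 members were at least 2-fold higher and the median was 0.64. Over the 14 members at 10 CPM in both libraries it was 0.53. SPATA18, which takes part in the clearance of damaged mitochondrial proteins, stood at 3.14 CPM at 0 Gy and 23.7 CPM at 4 Gy, a ratio of 2.91 (2.77 to 3.07). EDA2R, a death receptor of the tumour necrosis factor family, stood at 22.1 and 82.7 CPM (1.90). FAS, the receptor of FAS ligand, stood at 20.9 and 59.5 CPM (1.51). Receptors were thus among the highest ratios of this group, and TNFRSF10B, a receptor of TRAIL, stood at 123 and 202 CPM (0.72). AEN, a nuclease of apoptotic cells, stood at 12.04 and 23.04 CPM (0.93), and TRAF4, a signalling adaptor, at 27.0 and 49.3 CPM (0.87). BAX, a pore-forming protein of the outer mitochondrial membrane, had a ratio of 0.60, the oxidoreductase gene TP53I3 0.70, and APAF1, the scaffold of the apoptosome, 0.05. SIVA1, a death-linked adaptor, went the other way with 34.4 and 18.9 CPM (-0.87). BBC3, which encodes PUMA, stayed below the limit at 2.15 and 6.56 CPM, and PMAIP1, which encodes NOXA, at 2.72 and 2.36 CPM.

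Among p53 targets of repair, redox and metabolism, 7 of 20 members were at least 2-fold higher and the median was 0.68. Over the 17 members at 10 CPM in both libraries it was 0.66. FDXR, a mitochondrial reductase used as a blood marker of radiation exposure, stood at 50.8 CPM at 0 Gy and 197 CPM at 4 Gy (1.96, interval 1.92 to 2.00). CYFIP2, an actin regulator, stood at 109 and 417 CPM (1.94). DDB2 and XPC, which recognise damaged bases in nucleotide excision repair, had ratios of 1.49 (16.9 and 47.5 CPM) and 1.02 (31.9 and 64.7 CPM). RRM2B, the p53-driven small subunit of ribonucleotide reductase, stood at 9.48 and 22.1 CPM (1.22), in the direction opposite to the S phase subunit RRM2 described below. SESN2, an inhibitor of mTORC1, stood at 6.84 and 17.6 CPM (1.36). DGKA, a diacylglycerol kinase, stood at 24.1 and 67.7 CPM (1.49), and REV3L, the catalytic subunit of a translesion polymerase, at 20.04 and 35.6 CPM (0.83). SCO2 (-0.38) and LPIN1 (-0.16) were the only 2 members of the 20 with a ratio below 0.

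The other p53 targets held the highest ratio among genes at 10 CPM or more, that of NLRP1. Of the 32 members, 13 were at least 2-fold higher, and the median was 0.92. Over the 22 members at 10 CPM in both libraries the median was 0.75. NLRP1, an inflammasome sensor, had 98 counts at 0 Gy and 1124 at 4 Gy, or 0.708 and 10.005 CPM, a ratio of 3.79 (3.52 to 4.13). It reached the limit in the 4 Gy library alone. With DESeq2 size factors or plain library size it fell below the limit, and the list held 31 members. SULF2, a sulfatase of heparan sulfate, stood at 6.50 and 49.4 CPM (2.92). ACTA2, smooth muscle actin, stood at 13.1 and 95.4 CPM (2.86), and ANK1, an ankyrin, at 1.83 and 12.995 CPM (2.81). ACTA2-AS1, which overlaps ACTA2 on the other strand, had a ratio of 2.75, and since the use of strand is not given in the sources used here, its reads cannot be told apart from those of ACTA2. GDF15, a secreted stress cytokine, stood at 10.4 and 64.7 CPM (2.64). PVT1, a long non-coding RNA, stood at 6.03 and 30.3 CPM (2.33). TXNIP, an inhibitor of thioredoxin, stood at 15.5 and 48.3 CPM (1.63), and PLXNB3, a semaphorin receptor, at 8.74 and 27.3 CPM (1.64). The lowest ratio in this group was that of HRAS at -0.21. CEACAM1, a cell adhesion molecule below the limit, had 33 counts at 0 Gy and 580 at 4 Gy, or 0.238 and 5.16 CPM. Its ratio of 4.35 was above that of NLRP1.

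**Figure D2:**
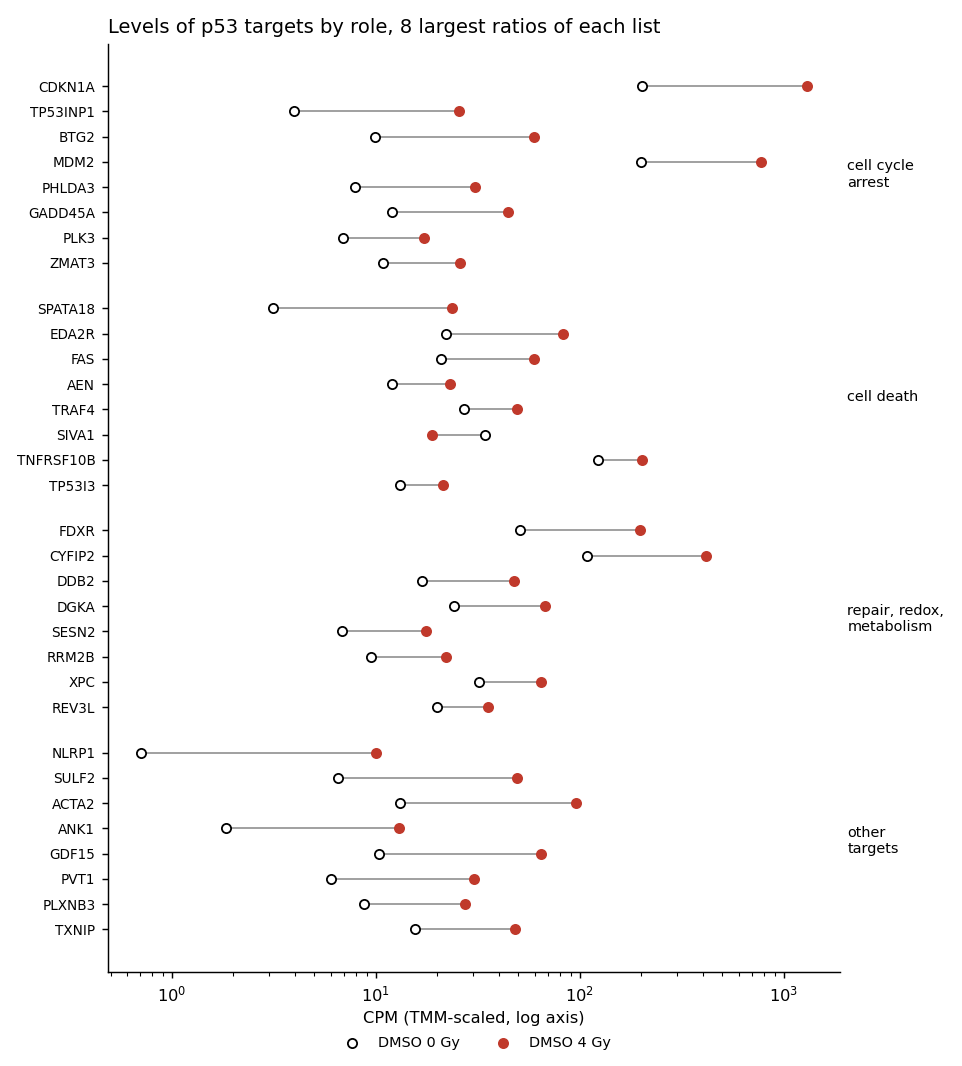
Levels (CPM, log axis) of the 8 members of each p53 target list with the largest ratios, in DMSO 0 Gy (open) and DMSO 4 Gy (filled), 1 library each. All of the 32 genes drawn but SIVA1 were higher at 4 Gy, among them CDKN1A at 201 and 1296 CPM.

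Among the genes with the 20 highest ratios, 5 were in no list: ACTA2-AS1, HRNR, UNC5B, EPS8L2 and PTPRN2. UNC5B, a netrin receptor, stood at 2.72 CPM at 0 Gy and 12.1 CPM at 4 Gy (2.14). EPS8L2, an actin-linked adaptor, stood at 4.28 and 18.4 CPM (2.10). PTPRN2, a protein of secretory vesicles, stood at 3.51 and 13.8 CPM (1.97), and HRNR, an epidermal structural protein, at 2.12 and 11.3 CPM (2.40). Each of these was under 5 CPM in the unirradiated library. Among the genes with the 20 lowest ratios, 4 were in no list. MYO1G, an unconventional myosin, had 2530 counts at 0 Gy and 5 at 4 Gy, or 18.3 and 0.0445 CPM, and its ratio of -8.24 (-10.31 to -7.46) was the lowest of all. Its levels in the DZNep libraries were 0.788 and 1.37 CPM, so the unirradiated DMSO library stood apart from the other 3. PASK, a nutrient-responsive kinase, stood at 17.8 and 6.15 CPM (-1.53), and PCYT2, of phosphatidylethanolamine synthesis, at 32.3 and 13.2 CPM (-1.29). GUCY1B3, a subunit of the nitric oxide receptor guanylate cyclase, stood at 11.6 and 4.81 CPM (-1.27).

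The replication genes lay on the low side throughout: all 46 measured members had a ratio below 0, 14 were at least 2-fold lower, 31 at least 1.5-fold lower, and the median was -0.72. CLSPN, which encodes the checkpoint mediator claspin, stood at 19.996 CPM at 0 Gy and 6.63 CPM at 4 Gy, a ratio of -1.59 (-1.71 to -1.48). POLE2, a subunit of the leading-strand polymerase, stood at 36.6 and 14.9 CPM (-1.30). RFC4, of the clamp loader, stood at 23.1 and 9.39 CPM (-1.30). Helicase, loader and polymerase genes were low alike, with GINS2 of the replicative helicase at 25.7 and 10.96 CPM (-1.23) and MCM10 at 37.97 and 17.1 CPM (-1.15). TIPIN, WDHD1 and DNA2, which stabilise forks or process DNA ends, had ratios of -1.20, -1.11 and -1.08. The sliding clamp PCNA was less far apart at 208 and 139 CPM (-0.58), and the licensing factor CDT1 and the ligase LIG1 were nearest to 0, at -0.06 each.

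Of 28 nucleotide synthesis genes, 2 were at least 2-fold lower, 11 at least 1.5-fold lower and 0 at least 1.5-fold higher, with a median of -0.49. RRM2, the S phase subunit of ribonucleotide reductase, stood at 754 CPM at 0 Gy and 273 CPM at 4 Gy, a ratio of -1.46 (-1.48 to -1.45). DUT, which removes dUTP, stood at 277 and 145 CPM (-0.93). The large subunit RRM1 was less far apart, at 56.5 and 35.0 CPM (-0.69). The purine and folate genes PPAT, ADSS, MTHFD1 and SHMT1 had ratios from -0.95 to -0.74.

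Among 25 regulators of the G1 phase, 3 were at least 2-fold lower, 10 at least 1.5-fold lower and 0 at least 1.5-fold higher, with a median of -0.29 (-0.18 over members at 10 CPM in both libraries). LRR1, a replisome-linked ubiquitin ligase subunit, stood at 53.3 CPM at 0 Gy and 17.3 CPM at 4 Gy (-1.62). WDR76, a damage-linked protein, stood at 39.7 and 17.1 CPM (-1.22), and CDKN2C, the inhibitor p18, at 10.8 and 4.97 CPM (-1.12). MYBL2, the activator that replaces DREAM at mitosis promoters, stood at 342 and 196 CPM (-0.80), and E2F1 at 20.01 and 12.3 CPM (-0.70). SKP2, which marks the inhibitor p27 for degradation, stood at 87.1 and 47.0 CPM (-0.89). The group was mixed, with 6 of the 25 ratios above 0. CCND1, cyclin D1, lay on the other side at 49.1 and 70.7 CPM (0.53), and RB1 was near its unirradiated level at 20.6 and 23.2 CPM (0.17).

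Mitosis genes were lower in 71 of 72 cases, with 10 at least 2-fold lower, 48 at least 1.5-fold lower and a median of -0.73. CCNA2, cyclin A, stood at 52.6 CPM at 0 Gy and 17.0 CPM at 4 Gy, a ratio of -1.63 (-1.70 to -1.56). AURKB, the kinase of the chromosomal passenger complex, stood at 236 and 97.4 CPM (-1.28). HJURP, the chaperone that loads the centromeric histone CENPA, stood at 206 and 85.0 CPM (-1.27). KIF11, the motor that separates spindle poles, had the same ratio at 27.0 and 11.1 CPM (-1.27). These 4 genes were the lowest of the group, followed by CDCA3 (-1.15), KIF20A (-1.08), CENPF (-1.07) and BUB1 (-1.06), which act in division, cytokinesis and the spindle checkpoint. CCNB1 and CDK1, which form the kinase of mitotic entry, stood at 105 and 61.5 CPM (-0.77) and at 25.4 and 14.8 CPM (-0.78). MKI67, the proliferation marker Ki-67, stood at 252 and 127 CPM (-0.99). CDC25B, a phosphatase that activates CDK1, was the only member above 0, at 0.20.

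**Figure D3:**
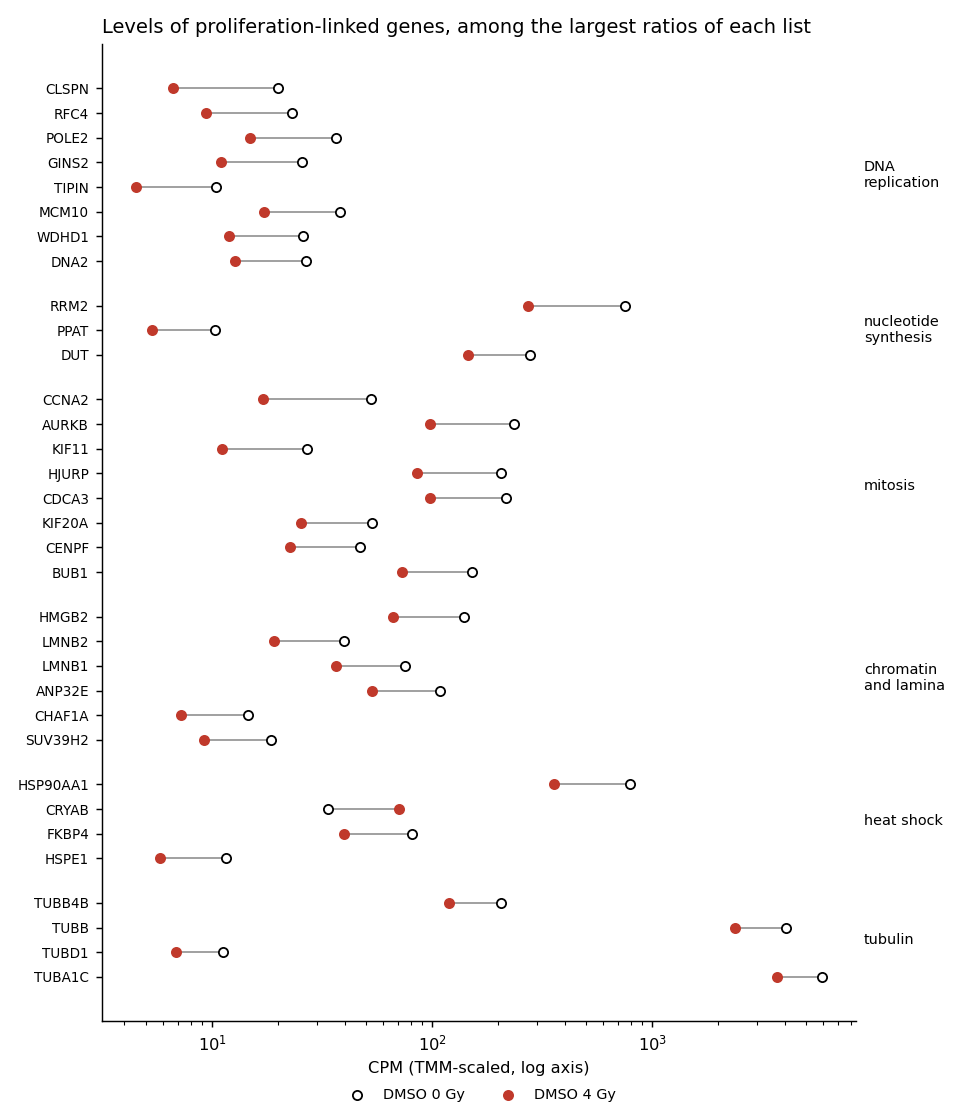
Levels (CPM, log axis) of replication, nucleotide synthesis, mitosis, chromatin and lamina, heat shock and tubulin genes among those with the largest ratios of each list, in DMSO 0 Gy (open) and DMSO 4 Gy (filled), 1 library each. The filled point lies to the left of the open one for each gene drawn except CRYAB.

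Genes of chromatin assembly and of the nuclear lamina had the lowest median of the lists, -0.81, with 7 of 26 members at least 2-fold lower and 18 at least 1.5-fold lower. With a trend in GC content and gene length removed, the replication list was lowest, at -0.824 against -0.807. LMNB1, lamin B1, stood at 75.02 CPM at 0 Gy and 36.7 CPM at 4 Gy (-1.03). LMNB2 stood at 39.8 and 19.2 CPM (-1.05), and LBR, the lamin B receptor, at 149.7 and 78.2 CPM (-0.94). The lamina genes were thus on the low side together with HMGB2, a chromatin protein, at 139 and 66.5 CPM (-1.07). CHAF1A, which deposits histones behind the fork, stood at 14.6 and 7.23 CPM (-1.02), and SUV39H2, a histone H3 lysine methyltransferase, at 18.5 and 9.24 CPM (-1.003). EZH2, the histone methyltransferase of the Polycomb complex PRC2, stood at 76.4 and 48.9 CPM (-0.64). AHCY, the target of DZNep, stood at 279 and 292 CPM (0.06), between the quartiles of all genes.

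Of 8 replacement histone genes, which are transcribed outside S phase and polyadenylated, 2 were at least 2-fold lower. H2AFZ, histone H2A.Z, stood at 47.9 CPM at 0 Gy and 19.9 CPM at 4 Gy (-1.27), and the related H2AFV at 59.8 and 25.7 CPM (-1.22). Transcripts of clustered histone genes mostly lack a poly(A) tail, and 30 of 32 stayed below 10 CPM in these libraries. The 2 measured ones lay on the high side, HIST1H1C at 5.81 and 12.2 CPM (1.06) and HIST1H2BK at 18.3 and 23.1 CPM (0.34).

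Genes of double strand break repair and checkpoints were not on the high side. Of 35 members, 3 were at least 2-fold lower, 15 at least 1.5-fold lower and 0 at least 1.5-fold higher, with a median of -0.50. BLM, a helicase of homologous recombination, stood at 14.4 CPM at 0 Gy and 5.25 CPM at 4 Gy (-1.46). UBE2T, the conjugating enzyme of the Fanconi anaemia pathway, stood at 128 and 57.9 CPM (-1.15), and BARD1, a ubiquitin ligase subunit of recombination repair, at 39.2 and 17.7 CPM (-1.14). The checkpoint kinase WEE1 stood at 18.3 and 10.5 CPM (-0.80). XRCC5, which encodes the end joining protein Ku80, stood at 135 and 81.3 CPM (-0.73). Base, mismatch and nucleotide excision repair genes were nearer to the background, with 4 of 23 at least 1.5-fold lower and a median of -0.19. UNG, the uracil glycosylase (61.2 and 33.7 CPM, -0.86), and MSH6, of mismatch recognition (104 and 59.3 CPM, -0.81), were their lowest members.

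Among 28 heat shock protein genes, 14 were at least 1.5-fold lower and 1 at least 1.5-fold higher, with a median of -0.60. HSP90AA1, the inducible cytosolic chaperone, stood at 792 CPM at 0 Gy and 359 CPM at 4 Gy (-1.14), its co-chaperone FKBP4 at 81.4 and 39.6 CPM (-1.04), and the mitochondrial HSPE1 at 11.5 and 5.78 CPM (-0.997). CRYAB, a small heat shock protein, went the other way at 33.7 and 71.0 CPM (1.08). Of 14 tubulin genes, 7 were at least 1.5-fold lower and 1 at least 1.5-fold higher, with a median of -0.59. TUBB stood at 4059.9 and 2380.4 CPM (-0.77), TUBB4B at 205 and 119 CPM (-0.78) and TUBA1C at 5912 and 3708 CPM (-0.67). Tubulin paralogs are near-identical, so the split of reads between them is uncertain, and 12 of the 14 lay below 0.

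Genes of matrix, adhesion and growth factor signalling lay on the high side by smaller amounts. Of 30 TGF-beta, contractile and matrix genes, 10 were at least 1.5-fold higher and 0 at least 1.5-fold lower, with a median of 0.43. FN1, fibronectin, stood at 9949 CPM at 0 Gy and 17895 CPM at 4 Gy (0.85). BGN, a matrix proteoglycan, stood at 4.59 and 11.9 CPM (1.37), and COL5A1, a fibrillar collagen, at 18.6 and 36.7 CPM (0.98). The receptor TGFBR1 (103 and 190.3 CPM, 0.89) and the signal transducer SMAD3 (147 and 264 CPM, 0.84) were high in the same library. Of 18 YAP and TEAD targets, 5 were at least 1.5-fold higher, with a median of 0.50. CTGF, a matricellular growth factor, was the highest of them at 98.3 and 175 CPM (0.83), and WWTR1, the co-activator TAZ, stood at 287 and 455 CPM (0.67). Of 17 matrix proteases and inhibitors, 5 were at least 1.5-fold higher and 1 at least 1.5-fold lower, with a median of 0.32 (0.54 with no filter). SERPINE2, an inhibitor of serine proteases, stood at 1394 and 2685 CPM (0.95), and PLAU, urokinase, at 54.9 and 103 CPM (0.90).

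Of 21 immediate early genes, 11 were at least 1.5-fold higher and 0 at least 1.5-fold lower, with a median of 0.62, against 0.37 over the 31 members at 1 CPM or more. DUSP1, a phosphatase of MAP kinases, stood at 66.8 CPM at 0 Gy and 143 CPM at 4 Gy (1.10). KLF10, a TGF-beta-responsive factor, stood at 84.8 and 160.1 CPM (0.92), and the nuclear receptors NR4A1 and NR4A3 at 295 and 509 CPM (0.78) and at 42.0 and 80.6 CPM (0.94). Of 16 epithelial and mesenchymal markers, 5 were at least 1.5-fold higher, with a median of 0.42 over the list. Most of the 5 were epithelial: JUP, plakoglobin (484 and 835 CPM, 0.79), KRT7 (6.94 and 11.9 CPM, 0.78), PKP2 (0.72) and KRT19 (0.69). The last was the mesenchymal factor ZEB2 (28.5 and 46.7 CPM, 0.71).

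Of 23 secreted inflammatory and NF-kB genes at 10 CPM, 6 were at least 1.5-fold higher and 0 at least 2-fold higher, with a median of 0.29 (0.13 over members at 10 CPM in both libraries). TNFAIP3, the inhibitor A20 of NF-kB signalling, stood at 304 CPM at 0 Gy and 552 CPM at 4 Gy (0.86). IL6, an inflammatory cytokine, stood at 139 and 226 CPM (0.70), and ICAM1, an adhesion receptor of leukocytes, at 5.53 and 10.6 CPM (0.93). CXCL10 and CXCL11, chemokines of the interferon response, had at most 9 counts in either DMSO library. Of 18 interferon response genes, 1 was at least 1.5-fold higher, IFI6, at 8.08 and 14.1 CPM (0.80), and the median was 0.22. Of 26 antigen presentation and immune ligand genes, 3 were at least 1.5-fold higher, among them CD70, a ligand of the T cell receptor CD27, at 38.7 and 76.99 CPM (0.99). Over all genes compared 8.67% were at least 1.5-fold higher, and the interferon and antigen presentation counts were near that share. The medians of the interferon, antigen presentation and inflammatory groups thus lay inside or just above the range between the quartiles of all genes.

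Of 29 cholesterol and fatty acid synthesis genes, 13 were at least 1.5-fold lower and 1 at least 1.5-fold higher, with a median of -0.47. INSIG1, the sterol-responsive brake on SREBP, stood at 77.3 CPM at 0 Gy and 26.5 CPM at 4 Gy (-1.54). MSMO1 (19.8 and 8.10 CPM, -1.29) and SQLE (10.4 and 4.83 CPM, -1.11) encode enzymes of sterol synthesis. TM7SF2, a sterol reductase, was on the other side at 3.93 and 12.2 CPM (1.63). Of 35 MYC and ribosome biogenesis genes, 10 were at least 1.5-fold lower and 1 at least 2-fold higher, with a median of -0.45. NCL, nucleolin, stood at 268 and 144 CPM (-0.89), and the box C/D proteins NOP58 and FBL had ratios of -0.81 and -0.79. MXD4, an antagonist of MYC, was the member on the high side, at 5.09 and 15.6 CPM (1.61). Of 29 integrated stress and unfolded protein response genes, 4 were at least 1.5-fold higher and 1 at least 1.5-fold lower, with a median of 0.09. The shares over all genes compared were 8.67% and 7.36%.

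**Figure D4:**
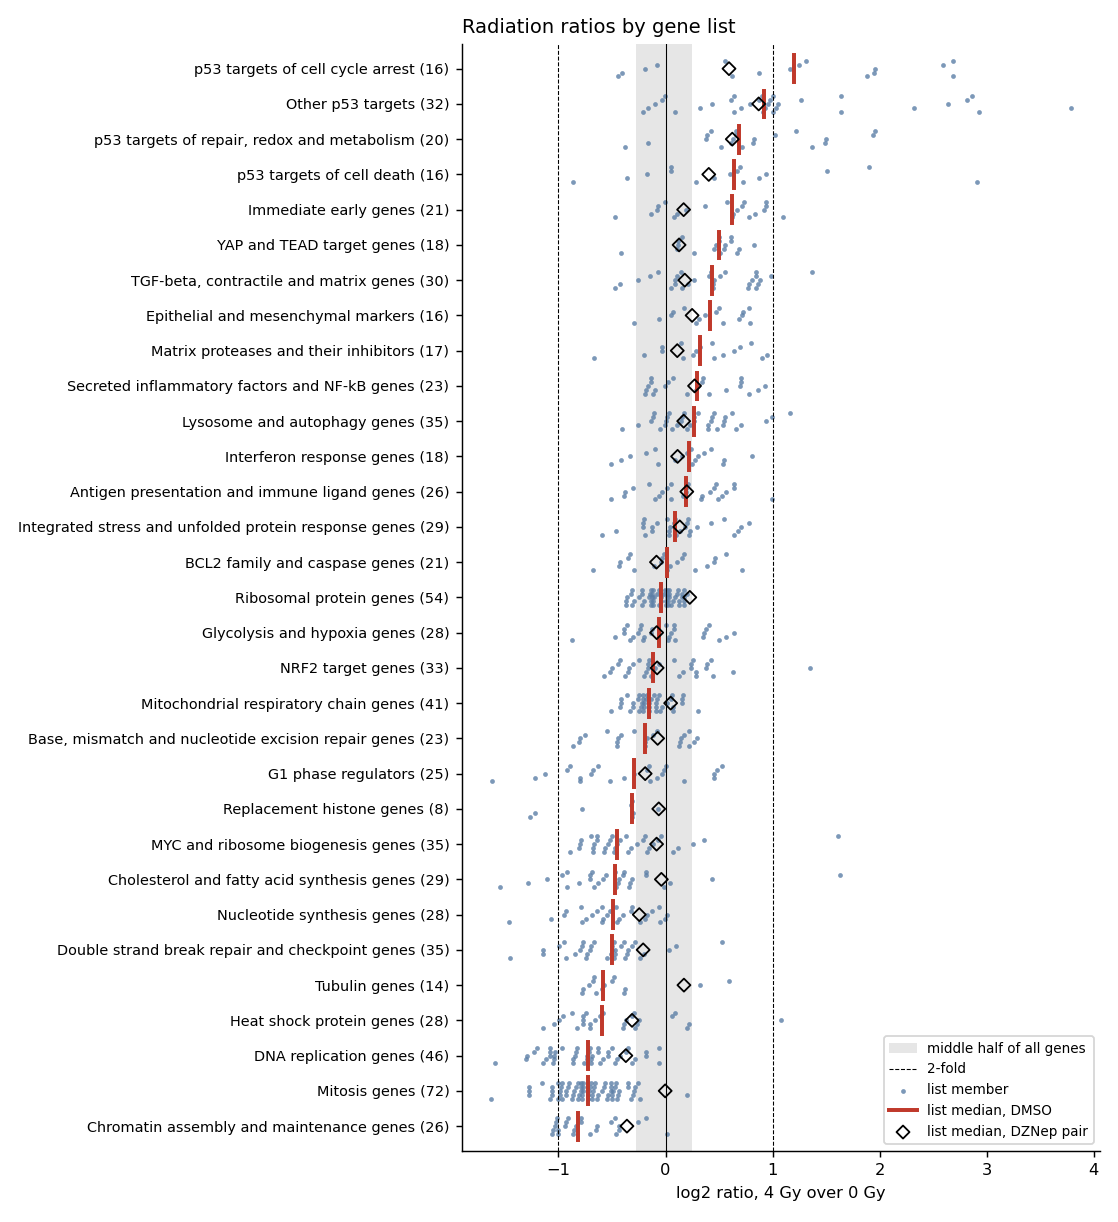
Log2 ratios of 4 Gy over 0 Gy in DMSO for the members of each gene list at 10 CPM (points), with the list median in DMSO (red bar) and in the DZNep pair (open diamond), the range between the quartiles of all genes (grey) and the 2-fold lines. The p53 lists stand at the top, up to a median of 1.201 (0.74 over members at 10 CPM in both libraries). Immediate early genes come next (0.62). At 10 CPM in both libraries their median (0.60) was above that of p53 targets of cell death (0.53). The mitosis, replication and chromatin lists stand at the bottom, down to -0.81, while the DZNep median of the mitosis list lies near 0.

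The elements shown at the start were set beside the ratios of all genes compared. Genes with both a CHR and a CCAAT box (304) had a median of -0.20, and 21.7% were at least 1.5-fold lower, against -0.03 and 7.04% of the 6379 without both. Genes with the E2F element (384) had a median of -0.18, and 15.6% were at least 1.5-fold lower, against -0.03 and 7.22% without it. Both groups include list members. The 66 lower genes with CHR and CCAAT box held 25 mitosis genes, and the 60 lower genes with the E2F element held 14 replication genes. The contrast without these lists was not computed. Within the mitosis list the medians with and without a CHR were -0.78 (43 genes) and -0.77 (17 genes). Within the replication list those with and without the E2F element were -0.83 (19 genes) and -0.71 (21 genes). Members of both lists thus had low ratios whether or not the window held the element.

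The pair of DZNep libraries, which shares no library with the DMSO pair, gives the same radiation contrast in the presence of the drug. Its spread over the same 8095 genes was smaller, with an SD of 0.36 against 0.45 in DMSO. In the DZNep pair 72 of 7988 genes were at least 2-fold higher (0.901%) and 16 at least 2-fold lower (0.2%), while 355 (4.44%) were at least 1.5-fold higher and 322 (4.03%) at least 1.5-fold lower. Of the 167 genes that were 2-fold higher in DMSO, 155 (92.81%) had a ratio above 0 in DZNep, against 53.3% of all genes compared, and 48 were 2-fold higher there too. Of the 80 that were 2-fold lower, 68 (85.0%) had a ratio below 0 in DZNep and 1 was 2-fold lower there too. These genes were chosen by their DMSO ratio, which alone makes smaller ratios in the other pair likely. No difference between the pairs has an error estimate, and none was tested.

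Side by side, the p53 lists together had a median of 0.82 in DMSO and 0.71 in DZNep. The order of these 2 medians depends on the filter, which used the DMSO libraries alone. Over the 65 members at 10 CPM in both DMSO libraries the DMSO median was 0.66, and the DZNep median of those members was not computed. CDKN1A had ratios of 2.69 and 2.38, FDXR of 1.96 and 2.42, BTG2 of 2.59 and 2.76, and MDM2 of 1.96 and 1.25. GDF15 reached 304 CPM at 4 Gy with DZNep, from 36.1 CPM, against 64.7 CPM from 10.4 CPM with DMSO. PVT1 stood at 131 CPM at 4 Gy with DZNep, from 6.61 CPM, a ratio of 4.31 against 2.33 in DMSO. The p53 targets thus stood high in both pairs, and for ACTA2 the ratio was 2.86 in DMSO and 1.31 in DZNep. The mitosis list had a median of -0.73 in DMSO and -0.003 in DZNep (36 members above 0 and 36 below). The medians over all genes compared were -0.03 in DMSO and 0.02 in DZNep. The replication list had a negative median in both, -0.72 and -0.37, the lower being that in DMSO. Of the mitosis genes, 71 had the lower ratio in DMSO and 1 in DZNep, and of the replication genes 41 and 5. AURKB (-1.28 and -0.37), HJURP (-1.27 and -0.12) and RRM2 (-1.46 and -0.95) were named for being among the 20 lowest DMSO ratios. Their smaller ratios in DZNep were therefore likely from this choice alone. WDR76 (-1.22 and -1.38) and UNG (-0.86 and -1.64), of other lists, had the lower ratio in DZNep.

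**Figure D5:**
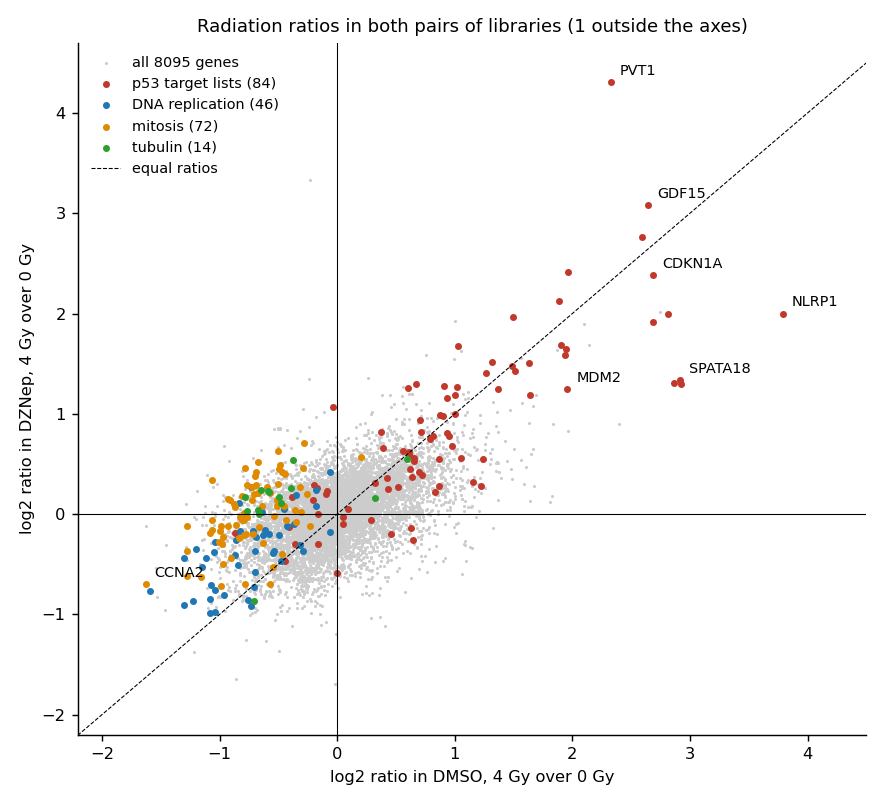
Log2 ratio of 4 Gy over 0 Gy in the DZNep pair (vertical axis) against that in the DMSO pair (horizontal axis) for 8095 genes, 1 library per group, with the line of equal ratios and MYO1G outside the axes. The p53 targets (84, red) lie mostly at the upper right, replication genes (46, blue) mostly at the lower left, and the mitosis genes (72, orange) lie left of 0 in DMSO, except CDC25B, and around 0 in DZNep.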

How the data were processed

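RNA of NCI-H460 cells was made into 4 libraries, 1 per group, with a kit for messenger RNA, per the labels' protocols. The deposited files hold whole-number counts for each gene symbol, 1 file a library, to which no scaling was applied. TopHat, edgeR and hg19 are named, per the submitters' processing notes. Versions, counting program and strand setting were not given in the sources used here. Even numbers were over-represented (55.86% to 58.06% of counts from 1 to 59 in each library), and the effect of this on the counting intervals was not tested.

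Counts were scaled by TMM over the 13378 genes at 1 CPM or more in at least 2 libraries (edgeR 4.0.16, R 4.3.3), with factors of 0.9787 to 1.0134. Log2 ratios used a prior count of 2 and intervals none. A gene counted as higher or lower at a 2-fold ratio. Ratios were checked on simulated data. Intervals were checked on simulated counts with counting error alone. Those counts lack the excess of even numbers, so the check does not cover it. Members, the 34 gene lists and the rule for named genes were chosen with earlier results of these data known, so no list is independent support. Named were the 20 highest and 20 lowest ratios, up to 8 or 4 members per list with the largest ratios, and CDKN1A, MDM2, GDF15, TXNIP, RRM2, CCNA2, CCNB1, CDK1, EZH2 and AHCY. Other members named with a ratio (such as CCND1, RB1, MKI67, PCNA, CDT1, LIG1, XRCC5, BAX and APAF1) and genes below the limit were chosen after their values were seen. Symbols of short RNAs were not named, and a few genes under this rule are not reported here. Alternatives were DESeq2 1.42.0 size factors, plain library size, TMM over the DMSO libraries alone, other filters, a prior count of 0.5, a 1.5-fold limit and removal of a trend with GC content and gene length (mgcv 1.9.3, GENCODE values for 96.11% of genes).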

Additional observations from a re-analysis of the deposited data

Results flagged for a closer look

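A few named genes and 1 list of at least 5 measured members had ratios of opposite direction in the DMSO and the DZNep pair. Both ratios were at least 0.5 in size for genes, and both medians at least 0.1 for lists. MYO1G, an unconventional myosin, had a ratio of -8.24 in DMSO (2530 counts at 0 Gy and 5 at 4 Gy, counting interval -10.31 to -7.46) and 0.79 in DZNep. Its levels were 18.3 CPM at 0 Gy and 0.0445 CPM at 4 Gy in DMSO, and 0.788 and 1.37 CPM in DZNep, so the unirradiated DMSO library alone was high. HIST1H1C, a linker histone, had ratios of 1.06 in DMSO and -0.60 in DZNep. CKS1B, a subunit of cyclin-dependent kinases, had -0.92 and 0.52. The mitosis genes GAS2L3 and TROAP, both linked to the cytoskeleton, had -0.68 and 0.51, and -0.51 and 0.63. Tubulin genes had a median of -0.59 in DMSO and 0.17 in DZNep. None of these differences was tested, since each group was 1 library.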

How the results depend on the processing

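With 1 library per group no replicate could be left out. No paired analysis was possible because each group holds 1 library. The counts of 167 genes at least 2-fold higher and 80 lower became 165 and 76 with DESeq2 size factors, 148 and 90 with plain library size, 168 and 80 with TMM over the DMSO libraries alone, 167 and 81 with a prior count of 0.5, and 135 and 70 without the trend in GC content and length. Without that trend, over the 7780 genes with these values, 123 of the 167 higher and 54 of the 80 lower genes were called again. Plain library size took the share of higher among the 2-fold calls from 67.61% to 62.18%. The counts followed the filter, with 574 and 232 at 1 CPM, 2289 and 1272 without a filter, and 80 and 53 at 10 CPM in both libraries, and a 1.5-fold limit gave 702 and 596. The replication median became -0.82 (-0.8238) without the GC and length trend, and the median of all p53 targets became 0.66 (0.6551) at 10 CPM in both libraries, which leaves out genes that were low at 0 Gy. Among list medians at least 0.2 in size, those that moved by over 1.5 times were of p53 targets of cell cycle arrest (1.201 to 0.7429), G1 regulators (-0.2928 to -0.1762) and inflammatory genes (0.2892 to 0.1334) at 10 CPM in both libraries, immediate early genes (0.6211 to 0.3725) at 1 CPM and with no filter, and matrix proteases (0.3225 to 0.5367) with no filter. The mitosis median stayed between -0.7478 and -0.6817 under the alternatives run. List medians near 0 changed sign with the setting: BCL2 family and caspase genes (0.01, and -0.01 with plain library size), ribosomal protein genes (-0.04, and 0.04 without the trend) and glycolysis genes (-0.06, and 0.01 at 10 CPM in both libraries). Among the list medians rerun, none of at least 0.1 in size changed sign. Ratios of named genes were rerun only with other scaling and a prior count of 0.5. Such changes are too small to reverse a 2-fold ratio, so no conclusion is drawn for those ratios. Ratios went with gene length (Spearman 0.18 across 7780 genes, which are not replicates) and GC content (0.16), and the trend explained 7.48% of the deviance. The intervals cover counting error at 112461380 counts or more a library, and variation between cultures was not measured.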

Other observations

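The medians of the ribosomal protein, respiratory chain, glycolysis and NRF2 groups lay between the quartiles of all genes. Over all genes compared, 8.67% were at least 1.5-fold higher and 7.36% at least 1.5-fold lower. Of 54 ribosomal protein genes none was 1.5-fold apart, with a median of -0.04 in DMSO and 0.23 in DZNep. Of 41 mitochondrial respiratory chain genes none was 1.5-fold apart, with a median of -0.15 and 32 ratios below 0. Of 28 glycolysis and hypoxia genes, HK2, a hexokinase, was at least 1.5-fold lower at 13.8 and 7.49 CPM (-0.88), and ANGPTL4, a secreted inhibitor of lipoprotein lipase, at least 1.5-fold higher at 17.0 and 26.4 CPM (0.64). Of 33 NRF2 targets, the aldehyde dehydrogenase ALDH3A1 (1070.0 and 2727 CPM, 1.35) and the transporter ABCC3 (61.6 and 95.5 CPM, 0.63) were at least 1.5-fold higher and none at least 1.5-fold lower. Of 35 lysosome and autophagy genes, 6 were at least 1.5-fold higher and none at least 1.5-fold lower. Their median of 0.26 lay just above the upper quartile of all genes. GAA, the acid glucosidase, stood at 76.6 and 171 CPM (1.16). The autophagy kinase ULK1 stood at 70.8 and 141 CPM (0.995) and GRN, progranulin, at 61.3 and 118 CPM (0.94).

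Neighbouring genes were looked up in RefSeq's gene order (GRCh38.p14) after the values were seen, for 8032 genes that could be placed. Among them 12 runs of adjoining measured genes were 2-fold apart in 1 direction, and 2 runs held 3 or more genes. One run was ACTA2-AS1, ACTA2 and FAS, with ratios of 2.75, 2.86 and 1.51. The other was RNF39, TRIM31, TRIM40, TRIM10 and TRIM15, with ratios of 1.04, 1.36, 1.36, 1.36 and 1.35. The counts of the 4 TRIM genes stood in fixed proportion in every library: TRIM31 had 0.600, 0.601, 0.602 and 0.600 times the count of TRIM10 in the unirradiated and irradiated DMSO libraries and the same DZNep pair. The same ratio was 0.733, 0.733, 0.733 and 0.737 for TRIM40 and 0.471, 0.467, 0.469 and 0.467 for TRIM15. RNF39, next to them, varied from 0.7505 to 0.9385. These 4 TRIM genes are counted among the 167 higher genes, and whether their counts hold the same reads was not tested.

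MYO1G, whose level was high in the unirradiated DMSO library alone, lies near CCM2, an adaptor of endothelial junctions that was also at least 2-fold lower in DMSO. CCM2 stood at 87.1 CPM at 0 Gy and 38.2 CPM at 4 Gy in DMSO, and at 28.8 and 33.7 CPM in DZNep. Both genes thus stood apart in the same library, and SNHG15, in the same region, did not, at 31.3 and 37.6 CPM in DMSO and 49.1 and 87.7 CPM in DZNep. MYO1G, CCM2 and SNHG15 were compared after their values were seen.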
